A study of Mus musculus with 6 samples.

Results

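The 10 genes described here encode the core of JAK-STAT signalling and its brakes: the kinases Jak1 and Jak2, the transcription factors Stat3, Stat5a and Stat5b, the feedback inhibitors Socs1, Socs2, Socs3 and Cish, and the adaptor Sh2b3, also called Lnk. They were taken as every non-control probe of the array whose gene name is one of these symbols, which gave 16 probes of 55681 and 10 gene names of 34650. All 10 genes were well above background on all 6 arrays and were among the 19609 genes tested. Cells came from Spred1 KO mice (KO, 3 arrays) and from wild-type mice (WT, 3 arrays), all labelled as strain C57BL/6. They were sorted from bone marrow as CD48-negative cells that carry Kit and Sca-1 and lack lineage markers, a fraction rich in haematopoietic stem cells and early progenitors. Total RNA was hybridised to 1-colour Agilent arrays. No label gives the age of the mice, the deleted part of Spred1 or whether replicates were separate animals. The p-values therefore reflect only how far these 6 samples scatter, and part of that scatter may be technical.

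Cytokine receptors without a kinase of their own carry JAK kinases. On binding a ligand such as thrombopoietin, interleukin-6 or an interferon, the JAKs phosphorylate the receptor and the STAT proteins docked there, which pair, enter the nucleus and switch on target genes. Among the first genes switched on are Cish and the Socs genes, whose products bind receptors or JAKs and damp the signal, so their transcripts are widely read as an output of the pathway. Sh2b3 restrains the thrombopoietin receptor and Jak2 in stem cells. Spred1, the gene targeted here, encodes an inhibitor of the neighbouring Ras-ERK cascade, which many of the same receptors also engage.

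The sequences through which these genes were read, and the promoters that carry the pathway's binding motif, are shown first. STAT pairs bind the palindrome TTCNNNGAA, in which N is any base and which reads the same on both strands. It was searched in windows from 250 bases before to 50 bases after the gene start (RefSeq, GRCm38.p6). Promoters were matched for 9 of the 10 genes, all but Socs2, with 11 windows in all. The motif stood in 2 of these 11, those of Cish and Socs3, against 8.3% of all 32851 promoter windows. The Cish window held it 2 times, TTCCTGGAA from base 1 and TTCTTGGAA from base 12 of the transcript, with 2 bases between them; 0.457% of all windows held it 2 or more times. The Socs3 window held TTCTTAGAA, beginning 154 bases before the start. Capitals mark the motif, and a match is a description of letters, not of binding.
Cish, chr9:107296409-107296708, plus strand: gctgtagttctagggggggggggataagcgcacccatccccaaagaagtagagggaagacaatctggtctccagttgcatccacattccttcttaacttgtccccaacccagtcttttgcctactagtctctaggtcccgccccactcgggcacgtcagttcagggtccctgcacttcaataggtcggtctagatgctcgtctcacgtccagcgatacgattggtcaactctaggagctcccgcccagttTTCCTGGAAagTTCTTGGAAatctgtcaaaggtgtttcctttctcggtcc
Socs3, chr11:117969317-117969616, minus strand: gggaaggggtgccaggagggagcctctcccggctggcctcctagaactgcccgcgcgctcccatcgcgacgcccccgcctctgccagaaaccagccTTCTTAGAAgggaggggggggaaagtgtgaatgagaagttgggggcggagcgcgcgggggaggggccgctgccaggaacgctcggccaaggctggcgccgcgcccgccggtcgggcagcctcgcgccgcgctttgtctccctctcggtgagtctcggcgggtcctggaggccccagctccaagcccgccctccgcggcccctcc

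Socs2 was read by 4 probes of 60 bases, and the first 30 bases of each are given because the result below rests on how they compare. The first 3 lie close together on chromosome 10 and are annotated to the same Socs2 transcript (NM_007706). The fourth lies on the same strand at 94848005 to 94848064 and is annotated to another transcript (ENSMUST00000139210). Coordinates of probes are on build mm9, as in the files.
A_55_P1992838, chr10:94875468-94875527, minus strand: tgacagtgtggttcatctgattgactacta
A_55_P1992834, chr10:94875187-94875246, minus strand: aaacacatgcctcatatagactatctccga
A_51_P107362, chr10:94875066-94875125, minus strand: aggtgtgaagatgtagctaggtattttaaa
A_55_P2072586, chr10:94848005-94848064, minus strand: gccaatgctgacacaaagacaatctcttaa

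Socs2 had the largest difference of the 10 genes and measured lower in KO, while the kinases, the STAT factors and Sh2b3 measured 93.8% to 105% of their WT level and Socs1, Socs3 and Cish had lower values that did not pass. No gene of the 10 passed the adjusted threshold of 0.05 (limma, Benjamini-Hochberg over all genes), where 0.0204% of all genes did. At an unadjusted p under 0.05, 1 of the 10 was lower (Socs2) and 0 were higher, against 5.12% of all genes lower and 7.07% higher. These background shares depend on how arrays are centred: 58.0% of genes under that p were higher in KO with the 75th percentile as reference and 16.4% with the median, which lowered every difference by 0.12 on the log2 scale. The median difference of the 10 genes was -0.063, against -0.0062 over all genes. In bulk samples, fewer cells of a type that carries a transcript and less of it per cell cannot be told apart.

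**Figure D1:**
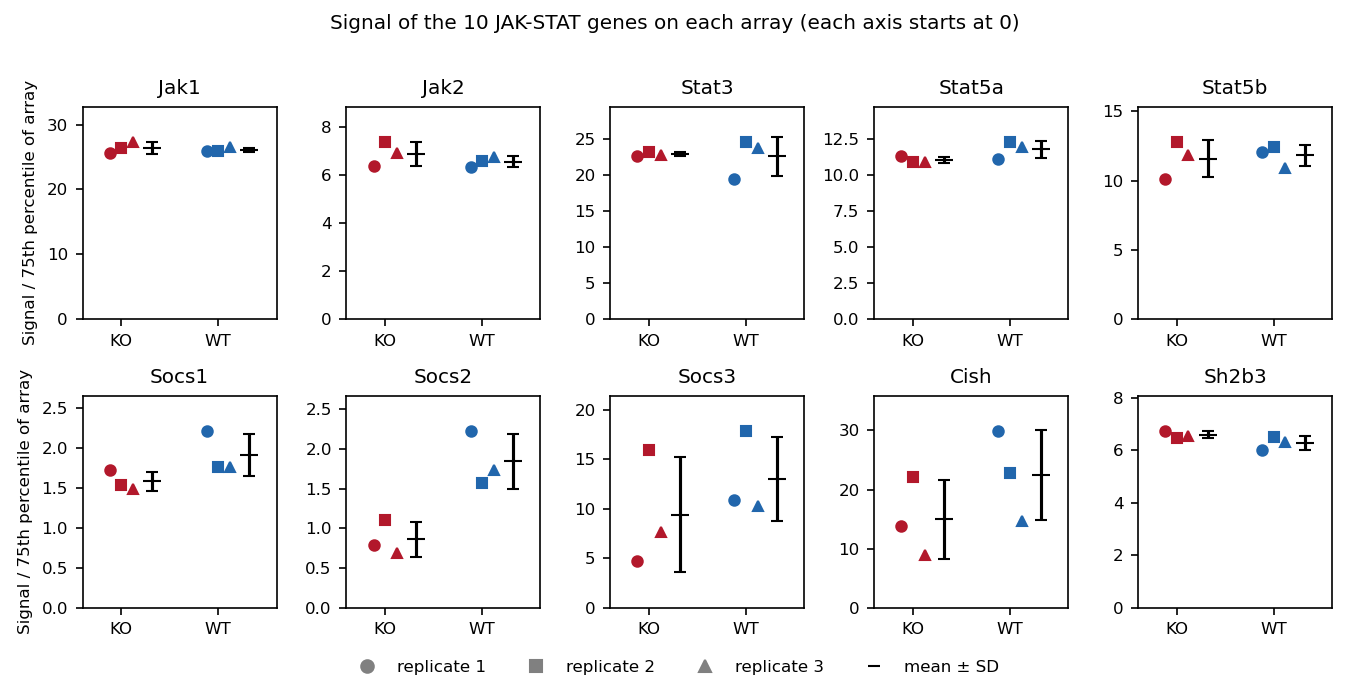
Signal of each of the 10 genes on each array, as a multiple of the array's 75th percentile (vertical axes start at 0 and differ between panels); points are arrays, marker shapes replicate numbers, bars the mean ± SD of 3 arrays. The KO arrays lie below the WT arrays without overlap for Socs2 and Socs1, and the other 8 genes overlap.

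Socs2 encodes an inhibitor induced by STAT5 that is best known for limiting growth hormone signalling. Levels below are relative signals, the probe's intensity as a multiple of the 75th percentile of its array. On the probe that represents the gene, A_51_P107362, Socs2 had relative signals of 0.79, 1.10 and 0.689 on the KO arrays, against 2.22, 1.57 and 1.73 on the WT arrays. Every KO array lay below every WT array, the highest KO value at 1.10 and the lowest WT value at 1.57. The KO level was 46.3% of the WT level (95% interval 0.329-fold to 0.652-fold; log2 difference -1.11 ± 0.21 SE, limma adjusted p = 0.352, unadjusted p = 0.00118). By unadjusted p it ranked 65 of the 19609 genes, and 27 genes (0.138%) had a difference as low or lower. The exact two-sided permutation p was 0.1, the smallest that 3 against 3 arrays allow.

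The 2 other probes of the same transcript gave similar values. A_55_P1992834 had relative signals of 0.551, 0.799 and 0.476 on the KO arrays, against 1.74, 1.10 and 1.12 on the WT arrays (-1.12 ± 0.25 SE on the log2 scale; adjusted p = 0.373 by limma among 27806 probes). A_55_P1992838 had 0.48, 0.641 and 0.407 on the KO arrays, against 1.30, 0.833 and 0.949 on the WT arrays (-1.01 ± 0.22 SE, limma adjusted p = 0.373). On both, the KO and WT arrays did not overlap. Each of these 3 probes was under an unadjusted limma p of 0.05 and lower in KO, as were 4.72% of all probes tested; none passed the adjusted threshold, which 0.0324% of all probes did. They read the same transcript on the same arrays and are not independent of each other. The fourth probe, A_55_P2072586, was not well above background on any KO array and was above it on 2 of 3 WT arrays. It was left out of the fit of probes. Its mean relative signals, 0.0469 in KO and 0.0905 in WT, are near background and give no fold.

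**Figure D2:**
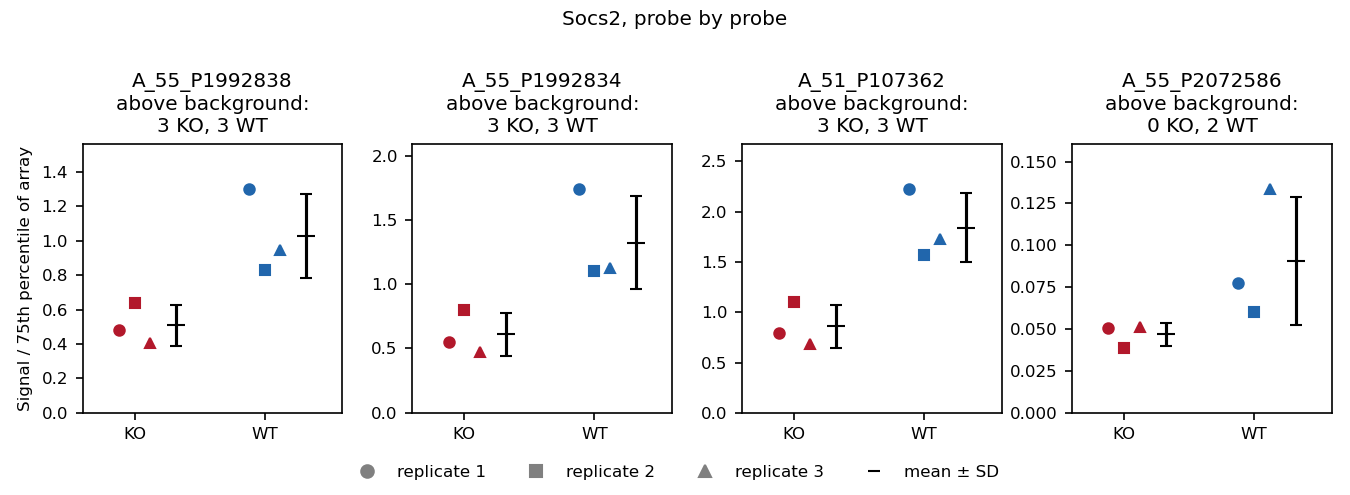
The 4 Socs2 probes on each array, as multiples of the array's 75th percentile (vertical axes start at 0 and differ between panels); bars show the mean ± SD of 3 arrays per genotype. The KO arrays lie below the WT arrays on the first 3 probes; the fourth is above background on 0 KO and 2 WT arrays, so its values give no order of arrays.

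The lower Socs2 level did not rest on a single array or slide. Over the 6 fits that each omit 1 array, the log2 difference ran from -1.30 to -0.96, with an unadjusted limma p of 0.00038 to 0.0053 and adjusted p of 0.179 to 0.693. Within slide 1, which held 2 arrays per genotype, it was -1.002, and between the single arrays of slide 2 it was -1.33. No alternative brought it past the adjusted threshold, and the lowest adjusted p, 0.163, came with an intensity trend in the variance model.

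Cish encodes an inhibitor that competes with STAT5 for docking sites on receptors, and its promoter is the one shown above with paired motifs. Cish had relative signals of 13.8, 22.1 and 8.98 on the KO arrays, against 29.9, 22.8 and 14.6 on the WT arrays. KO replicates 1 and 2 lay within the spread of the WT arrays or just under it, so the groups overlapped, and WT replicate 3 was itself low. The log2 difference was -0.62 ± 0.38 SE (95% interval -1.52 to 0.28, limma adjusted p = 0.513). It was -0.58 within slide 1 and -0.71 within slide 2. With the slide as a block the unadjusted limma p was 0.026 (adjusted p = 0.421). Without KO replicate 2 the difference was -0.95, without KO replicate 3 it was -0.30, and without WT replicate 1 it was -0.39.

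Socs3 encodes the inhibitor that binds gp130 and the G-CSF receptor together with the JAK attached to them. Socs3 had relative signals of 4.73, 16.0 and 7.64 on the KO arrays, against 10.9, 17.9 and 10.3 on the WT arrays. KO replicates 1 and 3 lay below all WT arrays, whereas KO replicate 2 lay above WT replicates 1 and 3. The log2 difference of -0.60 ± 0.45 SE did not pass (95% interval -1.66 to 0.46, limma adjusted p = 0.576). Without KO replicate 2 it was -1.07 and without KO replicate 1 it was -0.19. Without WT replicate 2 it was -0.35, so the size of the Socs3 difference varied with the arrays of both genotypes.

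Socs1 encodes an inhibitor that blocks the catalytic site of JAKs and restrains interferon signalling above all. Socs1 had relative signals of 1.72, 1.54 and 1.49 on the KO arrays, against 2.22, 1.77 and 1.76 on the WT arrays. The groups did not overlap, with KO replicate 1 close under the lowest WT arrays. The difference was small, at 83.2% of the WT level (log2 difference -0.26 ± 0.12 SE, 95% interval -0.55 to 0.025, limma adjusted p = 0.432). Without WT replicate 1, the highest array, it was -0.16. Of the 10 genes, 2 (Socs1 and Socs2) were lower without overlap and 0 were higher without overlap, against 10% and 9.52% of all genes.

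**Figure D3:**
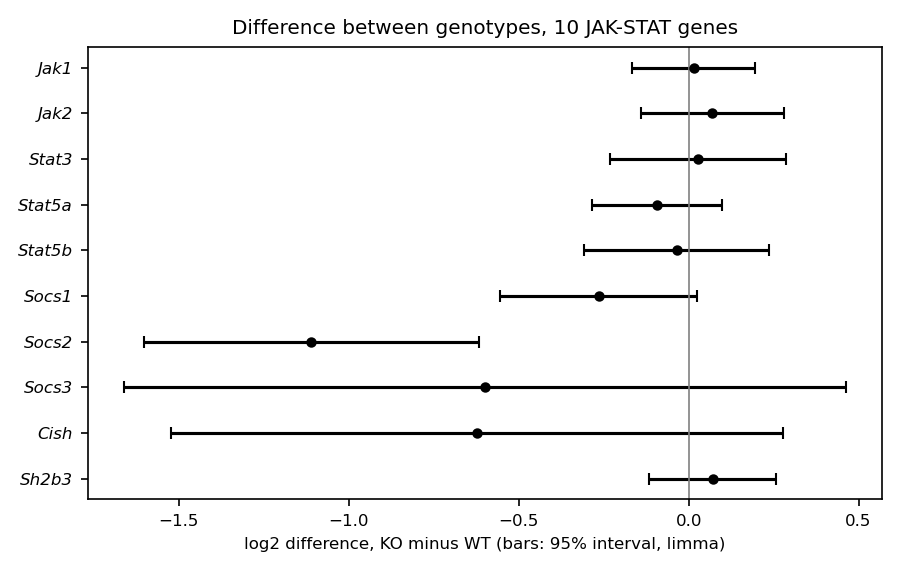
The log2 difference between KO and WT for each of the 10 genes (horizontal axis, KO minus WT; points are estimates and bars 95% intervals of the limma fit). The interval of Socs2, -1.60 to -0.62, lies below 0, the wide intervals of Socs3 and Cish include 0, and those of Jak1, Jak2, Stat3, Stat5a, Stat5b and Sh2b3 lie between -0.31 and 0.29.

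The kinases differed little between the genotypes. Jak1, the kinase shared by interferon and gp130 receptors, had relative signals of 25.6, 26.4 and 27.3 on the KO arrays, against 26.0, 25.9 and 26.5 on the WT arrays. Its log2 difference was 0.015 ± 0.076 SE, and the interval of -0.17 to 0.20 bounds the KO level between 0.892-fold and 1.15-fold of WT (limma adjusted p = 0.942). Jak2, the kinase of the thrombopoietin and erythropoietin receptors, had 6.39, 7.38 and 6.91 on the KO arrays, against 6.33, 6.59 and 6.77 on the WT arrays. The groups overlapped (log2 difference 0.070 ± 0.089 SE, 95% interval -0.14 to 0.28, limma adjusted p = 0.741).

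The STAT genes also differed little. Stat3, the factor of interleukin-6 family receptors, had relative signals of 22.7, 23.2 and 22.9 on the KO arrays, against 19.5, 24.6 and 23.8 on the WT arrays, where replicate 1 was the low array. Its log2 difference was 0.027 ± 0.11 SE (95% interval -0.23 to 0.29). A second Stat3 probe, A_55_P1991219, differed by -0.070 ± 0.17 SE. Stat5a had 11.3, 10.9 and 10.9 on the KO arrays, against 11.1, 12.3 and 11.9 on the WT arrays (-0.092 ± 0.080 SE, 95% interval -0.28 to 0.099). Stat5b, its close relative, had 10.1, 12.8 and 11.8 on the KO arrays, against 12.1, 12.4 and 10.9 on the WT arrays (-0.034 ± 0.11 SE, 95% interval -0.31 to 0.24). All 3 genes overlapped between the genotypes, and the second Stat5b probe, A_55_P2031045, stood at -0.047 ± 0.12 SE. The adjusted limma p was 0.929 for Stat3, 0.634 for Stat5a and 0.91 for Stat5b.

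Sh2b3, the adaptor, had relative signals of 6.73, 6.47 and 6.53 on the KO arrays, against 5.99, 6.50 and 6.30 on the WT arrays (log2 difference 0.071 ± 0.078 SE, 95% interval -0.12 to 0.26, limma adjusted p = 0.705). Its second probe, A_55_P1993864, stood at -0.058 ± 0.12 SE, so both probes lay near 0 with opposite signs. The signs of Jak1, Jak2, Stat3 and Sh2b3 turned negative with the arrays centred on their medians, by the common shift given above.

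Genes around the pathway, taken as lists, held no member past the adjusted threshold. Over all genes, 51.2% had lower values, and at an unadjusted limma p under 0.05 5.12% were lower and 7.07% higher. Of the 6 other Jak and Stat genes, 5 had lower values (median -0.12), with Jak3 at -0.26 ± 0.12 SE, Stat6 at -0.16 ± 0.091 SE and Tyk2 at -0.26 ± 0.16 SE, and none was under an unadjusted p of 0.05. The other Socs genes, Socs4 to Socs7, had 3 of 4 lower values (median -0.15): Socs5 measured -0.21 ± 0.11 SE, Socs6 -0.30 ± 0.23 SE and Socs4 0.13 ± 0.092 SE. No gene of this list was under that p, and 1 was without WT replicate 2. A list of other negative regulators held phosphatases, PIAS proteins, adaptors and others, whether or not each only restrains the pathway. Of its 13 measured genes, 10 had lower values around a median of -0.025. Without KO replicate 1, 7 of the 13 had lower values (median -0.0058). Pias4, a ligase that attaches SUMO, was lower at an unadjusted p under 0.05 (-0.36 ± 0.11 SE, limma adjusted p = 0.362), and Ptpn11 measured -0.18 ± 0.085 SE and Sh2b2 -0.13 ± 0.085 SE.

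Of 17 measured receptors that signal through JAKs, 1 was lower and 2 were higher at an unadjusted limma p under 0.05, against 5.12% and 7.07% of all genes, and 11 had lower values (median -0.074). With 1 array left out the median ran from -0.10 to -0.025. Il6st, which encodes the gp130 chain shared by interleukin-6 family receptors, had relative signals of 0.802, 0.952 and 0.91 on the KO arrays, against 1.26, 1.18 and 1.18 on the WT arrays, without overlap (log2 difference -0.45 ± 0.096 SE, adjusted p = 0.359). Ifngr1, a chain of the interferon-gamma receptor, had 17.9, 18.5 and 21.6 on the KO arrays, against 13.8, 16.1 and 15.7 on the WT arrays (0.35 ± 0.11 SE, adjusted p = 0.375). Csf3r, the G-CSF receptor, had 228.9, 205.6 and 225.6 on the KO arrays, against 166.8, 191.1 and 189.6 on the WT arrays (0.27 ± 0.095 SE, adjusted p = 0.38). The count of receptors with higher values under that p was 0 without KO replicate 3 or WT replicate 1, 1 without KO replicate 1 and 3 without WT replicate 2. The count with lower values was 2 without KO replicate 2 or WT replicate 2.

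Known STAT5 targets outside the 10 genes included 2 of 9 that were lower at an unadjusted limma p under 0.05, against 5.12% of all genes, and 8 of 9 had lower values (median -0.19), against 51.2% of all genes. The 1 with a higher value was Bcl6 (0.35 ± 0.32 SE, with overlap). The list does not separate targets that STAT5 raises from targets that it lowers. Without KO replicate 1, 6 of 9 had lower values and the median was -0.093. Pim1, a serine kinase that promotes survival and is a classic STAT5 target, had relative signals of 2.86, 3.37 and 2.98 on the KO arrays, against 4.61, 4.15 and 3.77 on the WT arrays. The arrays did not overlap (log2 difference -0.44 ± 0.11 SE, adjusted p = 0.362). Osm, which encodes the cytokine oncostatin M, had 0.0853, 0.134 and 0.13 on the KO arrays, against 0.207, 0.205 and 0.158 on the WT arrays (-0.72 ± 0.20 SE, adjusted p = 0.362). Pim2 measured -0.83 ± 0.35 SE with overlapping arrays. The count at that unadjusted p was 2 with each array left out, except for 4 without KO replicate 2, and these exclusions were chosen after the data had been seen.

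STAT3 targets had lower values in 8 of 8 genes (median -0.27), led by Myc (-0.48 ± 0.22 SE), Icam1 (-0.48 ± 0.25 SE) and Junb (-0.43 ± 0.32 SE), and none was under an unadjusted limma p of 0.05. That count was 3 without KO replicate 2, 2 without WT replicate 3 and 1 without WT replicate 1. The median was -0.086 without WT replicate 2 and -0.13, with 7 of 8 lower, without KO replicate 1, and it was -0.41 without KO replicate 2. Over all genes 51.2% had lower values. The median log2 level of the STAT3 targets, relative to the WT mean, was -0.53, 0.045 and -0.38 on KO arrays 1 to 3. It was 0.090, 0.13 and -0.23 on WT arrays 1 to 3. Within each genotype the arrays stood in the same order as for the immediate early genes below. The part of that variation in the STAT3 targets was not tested. The genes of a list share arrays and regulators and are not independent of each other.

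**Figure D4:**
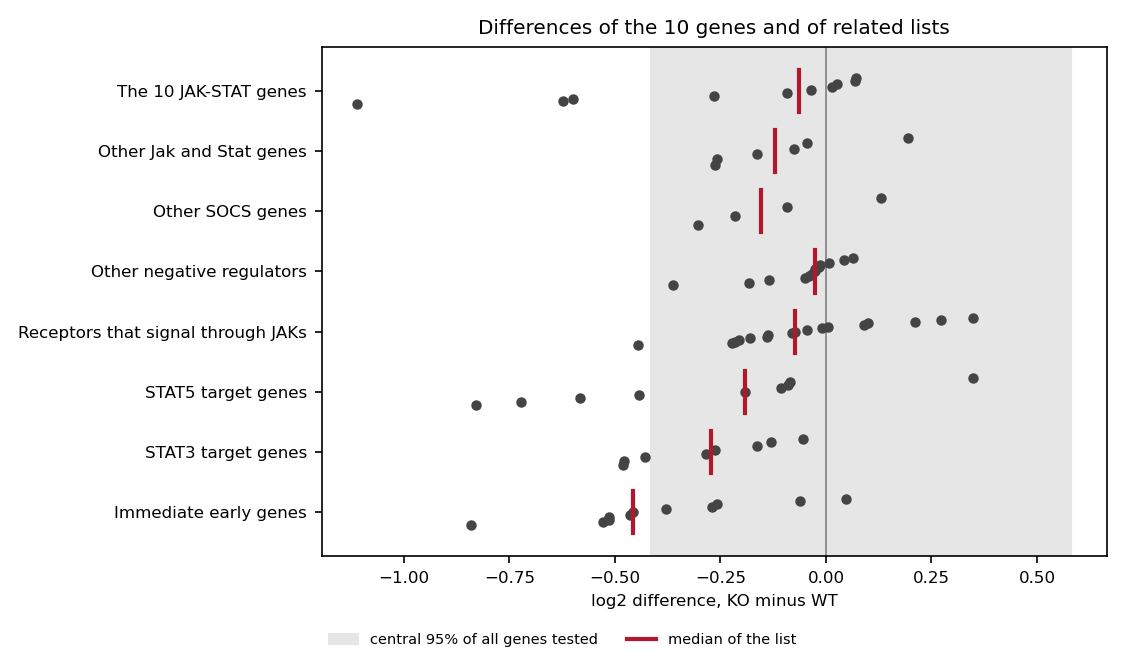
The log2 difference between KO and WT (horizontal axis) of each gene in the 10-gene set and in 7 related lists (rows); points are genes, red bars list medians, and the grey band holds the central 95% of all genes tested, -0.41 to 0.58. Socs2 is the lowest point, and the list medians run from -0.46 for immediate early genes to -0.025 for other negative regulators.

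Immediate early genes, which respond within minutes to cytokines as well as to cell handling, varied from array to array much as Socs3 did. Their median log2 level relative to the WT mean was -0.95, 0.23 and -0.47 on KO arrays 1 to 3, against 0.029, 0.32 and -0.34 on WT arrays 1 to 3. Socs3 stood at -1.42, 0.34 and -0.72 on the KO arrays, against -0.21, 0.50 and -0.29 on the WT arrays. Cish stood at -0.64, 0.038 and -1.26 on the KO arrays, against 0.47, 0.083 and -0.56 on the WT arrays. Socs2 stood at -1.20, -0.73 and -1.40 on the KO arrays, against 0.29, -0.21 and -0.076 on the WT arrays. Among the KO arrays, Socs2, Socs3, Cish and the immediate early genes were all highest on replicate 2. There Socs2 was below every WT array, and among the WT arrays it was lowest on replicate 2. The Pearson r of Socs2 over the 6 arrays was 0.56 with Socs3 and 0.78 with Cish. With Socs1 it was 0.80 and with Sh2b3 -0.83. Each r spans both genotypes and so includes the difference between them. Of the 11 immediate early genes, 10 had lower values in KO (median -0.46) and 1, Dusp1, was under an unadjusted limma p of 0.05 (-0.38 ± 0.14 SE, adjusted p = 0.394), a count that was 7 without KO replicate 2, 2 without WT replicate 3 and 0 without any other array. Over all genes 51.2% had lower values and 5.12% were lower at that p. Without KO replicate 1, 7 of 11 had lower values (median -0.21), and without WT replicate 2, 9 of 11 did (median -0.29). Ier2 measured -0.46 ± 0.22 SE and Zfp36 -0.51 ± 0.28 SE. The part of this variation in the values of Socs2, Socs3 and Cish was not tested.

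**Figure D5:**
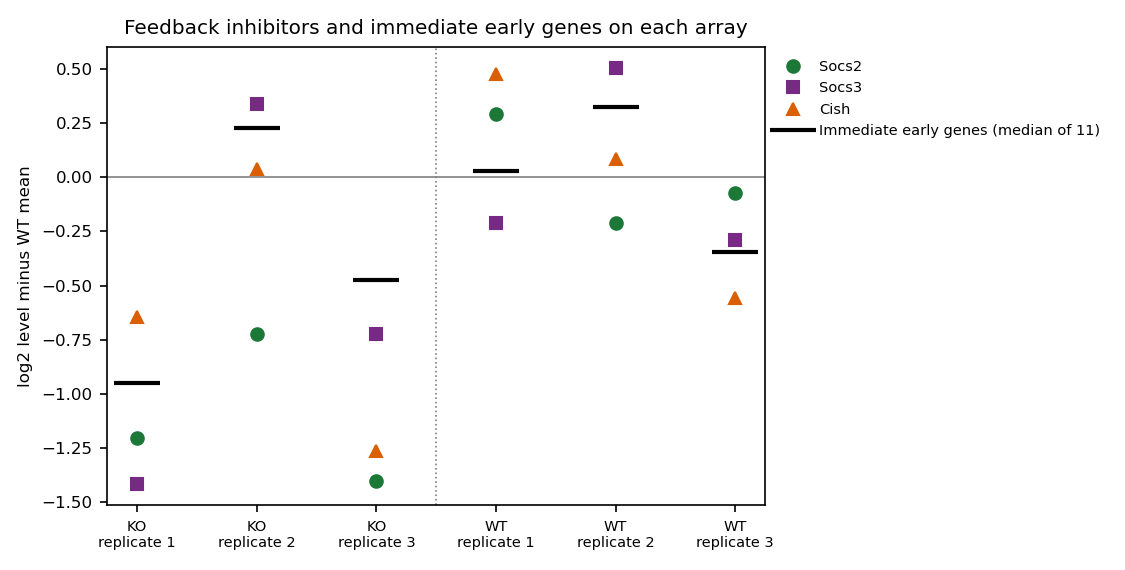
The log2 level of Socs2, Socs3 and Cish and the median of 11 immediate early genes on each array, relative to the mean of the WT arrays (vertical axis; KO arrays left, WT arrays right of the dotted line). Socs3 and the immediate early median are both high on KO replicate 2 and WT replicate 2 and low on KO replicate 1. Socs2 is below all WT arrays on each KO array, and highest among the KO arrays on replicate 2.

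Socs3 and Socs2 varied most over the 6 arrays among the 10 genes (SD of 0.71 and 0.67 on the log2 scale). The genes most like Socs3 in their log2 levels over the 6 arrays were Nos3 (Pearson r = 0.996), Ckmt1 (0.996) and Numa1 (0.993). Those most like Socs2 were Mmgt1 (0.999), Kbtbd4 (0.997) and Srp9 (0.996). With 18752 genes compared over 6 arrays, 55 genes for Socs3 and 243 for Socs2 exceeded 0.95, so these names are a description only.

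The gate and other cell types were checked through their markers, of which none passed the adjusted threshold. Kit and Ly6a, which encodes Sca-1, were well above background on all arrays, as was Cd48, with relative signals of 0.832 to 1.15 in KO and 0.631 to 1.06 in WT. Markers of stem and progenitor cells within the gate differed in sign. Higher values were found for 5 of 7 (median 0.18), against 48.8% of all genes. Their summed relative signal was 202.3 to 236.5 in KO and 201.1 to 218.2 in WT. Chosen after their values were seen, Flt3, a receptor of multipotent progenitors, measured 0.42 ± 0.13 SE without overlap (limma adjusted p = 0.37), Slamf1, which encodes the stem cell marker CD150, -0.56 ± 0.22 SE with overlap (adjusted p = 0.4), and Procr, another stem cell marker, -0.17 ± 0.085 SE without overlap (adjusted p = 0.454). The other markers of that list had higher values with overlap: Mecom 0.25 ± 0.15 SE, Hlf 0.21 ± 0.12 SE, Mllt3 0.18 ± 0.12 SE and Cd34 0.0036 ± 0.087 SE. The part of these markers in the lower Socs2 values was not tested. All 10 neutrophil markers were detected on every array, and their summed relative signal was 324 to 423.1 in KO and 93.3 to 499.5 in WT, lowest on WT replicate 1. The sums of 10 monocyte and macrophage markers were 7.71 to 10.4 in KO and 5.06 to 9.15 in WT. They were lowest on the same array, where 9 of the 10 were above background. In KO 10 of 10 had higher values (median 0.36), against 48.8% of all genes. Ccr2 among them was above background on 3 KO and 2 WT arrays, so it was tested only through KO, where it was higher. The 7 dendritic cell markers, of which 3 to 6 per array were above background, summed to 204.9 to 239 in KO and 174.4 to 199.99 in WT, most of it from Siglech alone (167.2 to 191.9 in KO and 138.2 to 159.1 in WT). Of the 5 tested, Siglech and Flt3 had higher values and the other 3, Zbtb46, Ccr9 and Bst2, lower values (median of the 5 -0.078). Zbtb46 and Ccr9 were each above background on 1 KO array and 3 WT arrays. They were thus tested only through WT, where they were higher, so their signs and the median that depends on them are no result. B cell markers summed to 9.50 to 11.7 in KO and 8.84 to 11.1 in WT, T and NK cell markers to 11.8 to 13.7 in KO and 11.7 to 13.2 in WT, erythroid markers to 75.8 to 81.4 in KO and 77.4 to 98.5 in WT, and megakaryocyte markers to 20.4 to 25.8 in KO and 18.5 to 23.6 in WT. Without WT replicate 1, Socs2 measured -0.97, Cish -0.39 and Socs3 -0.71. The arrays correlated at r = 0.988 to 0.995 across genes, which are not independent replicates. Of the 3 Spred1 probes, A_55_P2079430 stood at 50.7% of WT without overlap (limma adjusted p = 0.0543 among probes). A_55_P2079425 stood at 90.9% with overlap. A_55_P2090045 was 5.44-fold higher in KO without overlap (limma adjusted p = 0.0133). The groups thus differed at the targeted gene. Whether any probe lies in the deleted part is not given, so the direction each should take is not known and they are no full check of the labels.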

How the data were processed

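Total RNA of sorted cells was hybridised to 6 arrays; the submitters' processing notes name Agilent Feature Extraction 10.7.3.1. The deposited intensity used here, Agilent's processed signal, is linear and corrected for background and for trends within the array, with no step between arrays, per the file headers. As an alternative, the series' value table was used, in which each array's deposited intensity is scaled by a constant (304.4 to 368.2). Its column medians were 0.0638 to 0.075.

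From 59305 non-control spots per array, 92 to 155 outlier spots were left out and no spot was saturated. Spots of a probe were averaged, and log2 intensities were taken minus the array's 75th percentile (345.5 to 417), with no pseudocount. The probe with the highest mean over the 6 arrays represented a gene. Genes were tested where all 3 arrays of KO, of WT or of both had them well above background. KO was compared with WT by limma 3.58.1 in R 4.3.3 without covariates, tested on simulated data, with Benjamini-Hochberg adjustment over 19609 genes at 0.05. The number of arrays, 3 per genotype, limits the precision.

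Members, lists and the rule for named genes (all members, the 3 of smallest p per list, the 3 most like the 2 most variable members) were chosen with earlier results of these data known. The labels state no pairing of samples by replicate number. Deviations from the group means correlated at -0.026, 0.15 and 0.071 for equal numbers and at -0.23 to 0.18 for unequal numbers. With so few arrays these values cannot show whether samples were paired. KO and WT replicates 1 and 2 lay on slide 1 and replicates 3 on slide 2. Alternatives changed background correction, scaling, filter, probe choice, variance model and blocks and left out single arrays; leaving out arrays for the related lists was chosen after seeing the data. One list of related genes is not reported here.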

Additional observations from a re-analysis of the deposited data

How the results depend on the processing

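The lower Socs2, Socs1, Socs3, Cish and Stat5a values kept their direction in all 19 alternatives, but not all of these could change it. Changing the filter, the variance model or the blocks cannot alter a difference between group means in this balanced design. Choosing probes by arrays above background left the member differences unchanged, and the authors' value table, a scaling of each array, nearly repeated them. No member passed the adjusted threshold in any of the 18 alternatives with a test. Socs2 ran from -1.33 (within slide 2, no test) to -0.96 (normexp background with quantile normalization). Near 0, signs turned: with median centring Jak1 was -0.11, Jak2 -0.053, Stat3 -0.096 and Sh2b3 -0.052; Stat5b was 0.015 with normexp background and quantile normalization and 0.12 within slide 2; Stat3 was -0.022 as the mean of its probes. With 1 array left out, Stat5b ran from -0.11 to 0.060, Jak1 from -0.0091 to 0.038 and Stat3 from -0.077 to 0.091. The members under an unadjusted limma p of 0.05, 1 in the report, were 2 with median centring or an intensity trend (Socs1 and Socs2) and 2 with the slide as a block (Socs2 and Cish), and 1 to 3 with 1 array left out, with 3 (Socs2, Socs3 and Cish) without KO replicate 2. Genes past the adjusted threshold over all genes, 4 in the report, were 1 with quantile normalization, 9 with normexp background and quantile normalization, 13 with median centring, 1 among genes above background on all 6 arrays, 0 with no filter, 9 with the mean of probes, 9 with an intensity trend, 0 within slide 1, and 0 to 7 with 1 array left out. With the replicate number as a block, 4 members (Socs1, Socs2, Socs3 and Cish) were under an unadjusted limma p of 0.05. None passed the adjusted threshold, and 0 genes did over all. The labels state no such pairing, and the deviations cannot show whether there was one. The median difference of the members ran from -0.10 to -0.029 with 1 array left out. The cause of these changes was not tested. With 3 arrays per genotype, intervals of about 1 log2 unit on either side remained for Socs3 and Cish.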
